A study of Mus musculus with 2 samples.

Results

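The genes Amigo2, Rgs14, Map3k15, Cacng5 and Ccdc3, 5 genes known for their enrichment in hippocampal area CA2, were followed in 2 coronal mouse brain sections. They were chosen by name, and each was found once among the 32285 genes of the count matrices. Both sections came from adult male mice of the genotype ArcCreERT2::eYFPflx on a C57BL/6 background, in which a drug-inducible Cre recombinase driven by the Arc promoter can switch on a yellow fluorescent reporter. In active place avoidance a mouse on a rotating arena learns to stay away from a zone where it receives a mild foot shock. One mouse was trained with the shock on, the other was on the same arena with the shock always off (untrained), and the brains were frozen after a memory test without shock. RNA was captured on Visium slides, on which each spot of a hexagonal grid carries its own barcode and unique molecular identifiers (UMIs) count captured RNA molecules.

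CA2 is a small field of pyramidal cells between the larger fields CA1 and CA3. It is known for its part in social memory and for synapses that resist the usual forms of long-term potentiation. Rgs14, a regulator of G protein signalling, is a known brake on plasticity in these cells. Amigo2 encodes a leucine-rich repeat adhesion protein of the cell surface and Cacng5 an auxiliary subunit of AMPA receptors. Map3k15 encodes a kinase of the apoptosis signal-regulating kinase (ASK) family, and Ccdc3 a secreted coiled-coil protein. The questions asked of the data were whether the 5 genes shared a common small set of hippocampal spots between the CA1 and CA3 fields, and where else in each section they were found.

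Each label was represented by 1 section of 1 mouse, so spots are not replicates, no test between labels was possible, and none was run between regions. Intervals below are exact 95% intervals that cover counting error only. The section labelled trained held 4152 spots and 29515831 UMIs (median 5950 per spot), and the section labelled untrained held 3738 spots and 59029131 UMIs (median 13766). Levels are pooled UMIs per 1000000 UMIs of the same spots (CPM). A spot spans several cells, so fewer cells of a type and less RNA per cell cannot be told apart. Egr1, an activity-induced gene, was detected in 256 of 582 hippocampal spots under the label trained and in 388 of 558 under the label untrained. Spots under the label untrained were also deeper, with a hippocampal median of 16754 UMIs against 5258. The study's own text describes this gene in the opposite order between the labels. Whether the deposited labels are exchanged could not be settled here, and all directions are given as deposited.

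The hippocampal outline was drawn by clustering spots without the 5 genes and without the other CA2 genes named below, and its regions are called by a leading gene. The Wfs1 region (181 spots under the label trained, 190 under untrained) carried the CA1 markers Wfs1, Fibcd1 and Pou3f1 among its leading genes. The Bok region (84 and 127 spots) had the highest level of the CA3 marker set, although Bok was the single member of that set among its 10 leading genes. The Dsp region (154 and 169 spots) carried the dentate granule cell markers Dsp, C1ql2 and Prox1. The remaining 163 and 72 hippocampal spots belonged to none of these regions.

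The start regions of these genes are shown because the genes were compared as a group that may share spots. RefSeq start windows (250 bases before to 50 after the annotated start, build GRCm38.p6) were given for 3 of the 5 genes, Amigo2, Cacng5 and Ccdc3. In the lines below, read 5′ to 3′ on the strand of the gene, capitals mark matches on either strand to CANNTG (the E-box) or GGGCGG (the GC box).
Amigo2, chr15:97247238-97247537, minus strand: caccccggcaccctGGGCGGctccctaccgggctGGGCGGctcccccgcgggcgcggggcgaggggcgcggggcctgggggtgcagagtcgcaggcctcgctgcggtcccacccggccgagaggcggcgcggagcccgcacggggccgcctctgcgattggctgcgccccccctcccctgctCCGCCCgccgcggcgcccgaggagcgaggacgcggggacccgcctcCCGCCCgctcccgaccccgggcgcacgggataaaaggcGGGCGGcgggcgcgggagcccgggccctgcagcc
Cacng5, chr11:107915006-107915305, minus strand: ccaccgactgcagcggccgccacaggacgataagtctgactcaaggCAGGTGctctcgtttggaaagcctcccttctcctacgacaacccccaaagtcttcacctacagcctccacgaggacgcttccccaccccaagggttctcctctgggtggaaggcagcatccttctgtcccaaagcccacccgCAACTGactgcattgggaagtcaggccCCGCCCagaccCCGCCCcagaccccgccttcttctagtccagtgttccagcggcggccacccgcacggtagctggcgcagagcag
Ccdc3, chr2:5137526-5137825, plus strand: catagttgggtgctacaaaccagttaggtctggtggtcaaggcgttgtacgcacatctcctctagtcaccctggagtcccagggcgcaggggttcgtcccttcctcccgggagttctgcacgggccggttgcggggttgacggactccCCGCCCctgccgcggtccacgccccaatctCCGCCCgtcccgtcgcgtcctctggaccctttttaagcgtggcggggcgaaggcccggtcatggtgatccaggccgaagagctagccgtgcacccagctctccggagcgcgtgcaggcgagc
The GC box was matched 5 times in the Amigo2 window and 2 times in each of the windows of Cacng5 and Ccdc3 shown here, and 35.9% of all 32534 windows of this length held at least 1 match. The E-box was matched 2 times in the Cacng5 window, against 72.3% of all windows with a match, and was not found in the other windows shown. A second Cacng5 start window, at chr11:107911313-107911612, held 1 E-box and no GC box. TATAAA, TGACGTCA (the cAMP response element) and AGAACA (a half-site of steroid receptors) were found in none of these windows and in 13.6%, 1.80% and 18.9% of all windows. The GC content of the Amigo2 window was 83.3%, above that of 99.7% of all windows, with 63.3% for the Cacng5 window shown, 66.3% for Ccdc3 and a median of 53.0% over all windows. No letter pattern searched here was present in all 4 windows. These matches describe letters in a window and say nothing about binding.

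The 5 genes lie on different chromosomes (build GRCm38/mm10, GENCODE vM21 annotation). Amigo2 (ENSMUSG00000048218) is a gene of 1 exon in its longest coding transcript at chromosome 15, 97244125 to 97247287, overlapping Pced1b on the opposite strand. Rgs14 (ENSMUSG00000052087) has 15 exons at chromosome 13, 55369732 to 55384687. Map3k15 (ENSMUSG00000031303) has 29 exons at chromosome X, 159988433 to 160123351, and overlaps Pdha1 and Gm15194 on the opposite strand and Gm8682 on its own. Cacng5 (ENSMUSG00000040373) has 6 exons at chromosome 11, 107874605 to 107915055. Ccdc3 (ENSMUSG00000026676) has 3 exons at chromosome 2, 5137776 to 5230878, and overlaps Gm26776 on the opposite strand and Gm13198 on its own. How reads in such overlaps were assigned is not given in the sources used here, so the counts of Amigo2, Map3k15 and Ccdc3 are uncertain to that extent. Rgs14 was the most often captured of them with 1219 UMIs in 684 spots under the label trained and 1723 UMIs in 878 spots under untrained. Amigo2 gave 491 UMIs in 367 spots and 1176 UMIs in 724 spots, and Cacng5 gave 476 UMIs in 397 spots and 930 UMIs in 698 spots. Ccdc3 gave 210 UMIs in 167 spots and 829 UMIs in 537 spots. Map3k15 was sparse, with 101 UMIs in 93 spots and 137 UMIs in 116 spots, and no spot held more than 4 of its UMIs. Moran's I, a score of how alike neighbouring spots are that the authors deposited for each gene, was highest for Rgs14 (0.175 and 0.242) and lowest for Map3k15 (0.032 and 0.03).

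**Figure D1:**
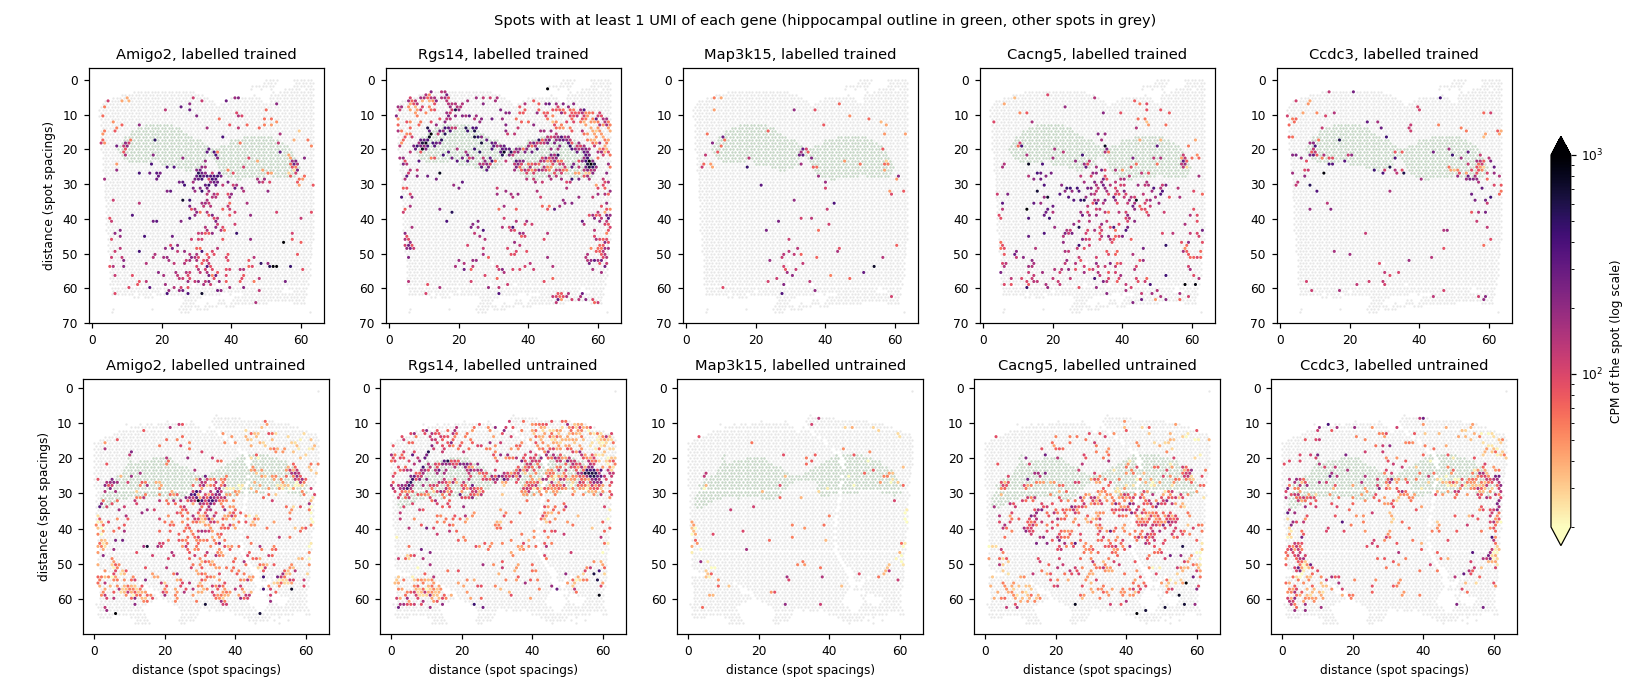
Maps of the 5 genes (columns) in the section labelled trained (top) and the section labelled untrained (bottom), with both axes in spot spacings, hippocampal spots in green, other spots in grey, and spots with at least 1 UMI coloured by their CPM on a log scale. Rgs14 follows the hippocampal cell layers and the cortex, Amigo2 has a dense patch below the hippocampal midline, Cacng5 is spread over the tissue below the hippocampus, and Map3k15 was detected in 93 and 116 spots.

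The 5 genes did share a small set of hippocampal spots in both sections. For each gene in turn, the 20 hippocampal spots with the highest summed level of the other 4 were taken as its territory, so that the gene itself had no part in the choice, and its level there was compared with that in all other hippocampal spots. All 5 genes were more than 2-fold higher in the territory in both sections. Among all other genes with at least 20 UMIs in the hippocampal spots, 5.91% of 10995 under the label trained and 4.13% of 12848 under untrained passed the same 2-fold line in the 20 spots highest for all 5 genes. Each of the 5 genes had more than 20 UMIs in the hippocampus of each section, the lowest being Map3k15 with 26 and 24.

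Amigo2 was raised in its territory in both sections. Under the label trained it reached 136 CPM in its territory (45 UMIs in 15 of 20 spots, 99.3 to 182) against 8.38 CPM elsewhere in the hippocampus (5.80 to 11.7), a log2 ratio of 4.02 (3.35 to 4.71). Under the label untrained it reached 127 CPM (97 UMIs in 17 of 20 spots, 103 to 155) against 12 CPM (9.96 to 14.2), a log2 ratio of 3.41 (3.01 to 3.80). The 20 spots, 3.44% and 3.58% of hippocampal spots, held 57.0% and 43.5% of the hippocampal Amigo2 UMIs, and 7.53% and 6.76% of all hippocampal UMIs.

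Rgs14 had the highest level of the 5 in the territory and also a broad level outside it. It reached 674 CPM under the label trained (178 UMIs in 15 of 20 spots, 578 to 780) against 105 CPM in the rest (95.8 to 116), a log2 ratio of 2.68 (2.42 to 2.93). The values under the label untrained were 394 CPM (265 UMIs in 16 of 20 spots, 348 to 444) against 68.2 CPM (63.3 to 73.4), a log2 ratio of 2.53 (2.32 to 2.73). Its territory held 29.0% and 26.8% of its hippocampal UMIs.

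Cacng5 and Ccdc3 were lower in level. Cacng5 reached 88.9 CPM (30 UMIs, 60 to 127) against 8.14 CPM (5.61 to 11.4) under the label trained and 59.3 CPM (43 UMIs, 42.9 to 79.8) against 9.17 CPM (7.44 to 11.2) under untrained, log2 ratios of 3.45 (2.69 to 4.21) and 2.70 (2.14 to 3.22). Ccdc3 reached 80.0 CPM (26 UMIs, 52.3 to 117) against 11.3 CPM (8.29 to 15.1) and 80.6 CPM (62 UMIs, 61.8 to 103) against 15.9 CPM (13.5 to 18.4), log2 ratios of 2.83 (2.07 to 3.55) and 2.35 (1.90 to 2.77). Map3k15 rested on few molecules. It gave 12 UMIs in 8 of 20 spots and 9 UMIs in 6 of 20 spots of the territories, 35.8 CPM (18.5 to 62.5) against 3.45 CPM and 11.6 CPM (5.32 to 22.1) against 1.42 CPM, log2 ratios of 3.38 (2.13 to 4.59) and 3.06 (1.66 to 4.32). The intervals of the territory and of the rest did not overlap for any of the 5 genes in either section. No share of all genes is given for this criterion, so it only describes the counts of the 5 genes.

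The territory spots were deeper than the rest of the hippocampus. The 20 spots chosen with all 5 genes had a median of 14911 UMIs against 5258 over all hippocampal spots under the label trained, and 32039 against 16754 under untrained. With only spots of at least 5000 UMIs on both sides, an alternative chosen after seeing the data, all 5 genes again passed 2-fold in both sections, with log2 ratios between 2.34 and 3.78. When every spot was thinned to 2000 UMIs before the territory was chosen, which left out 74 and 3 shallower hippocampal spots, 3 and 4 of the 5 genes passed. Rgs14 then had a log2 ratio of 0.20 under the label trained and 1.30 under untrained, and Ccdc3 had -0.04 and -0.81. At that depth no hippocampal spot under the label trained held 3 of the 5 genes. On the left side of the section labelled trained, Cacng5 reached a log2 ratio of 0.72, and 4 of the 5 genes passed there.

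The levels fell within a few spots of the territory. Amigo2 went from 136 CPM in its territory to 36.2 CPM (19.8 to 60.8) at 1 grid step, 15.7 CPM (5.09 to 36.6) at 2 steps and 3.10 CPM (0.376 to 11.2) at 3 to 4 steps under the label trained. The same distances gave 127, 46.3, 19.9 and 8.35 CPM under untrained. Cacng5 went from 88.9 CPM to 13.1 CPM (4.26 to 30.6) at 1 step and to no UMI in 47 spots at 2 steps under the label trained, where 3 counts would be 7.62 CPM. Rgs14 levelled off at 85.2 CPM at 3 to 4 steps and 89.6 CPM beyond under the label trained, and at 55.8 and 57.4 CPM under untrained. Ccdc3 did not fall evenly under the label untrained, with 22.1 CPM (12.6 to 35.9) at 2 steps and 33.0 CPM (24.8 to 43.1) at 3 to 4 steps.

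**Figure D2:**
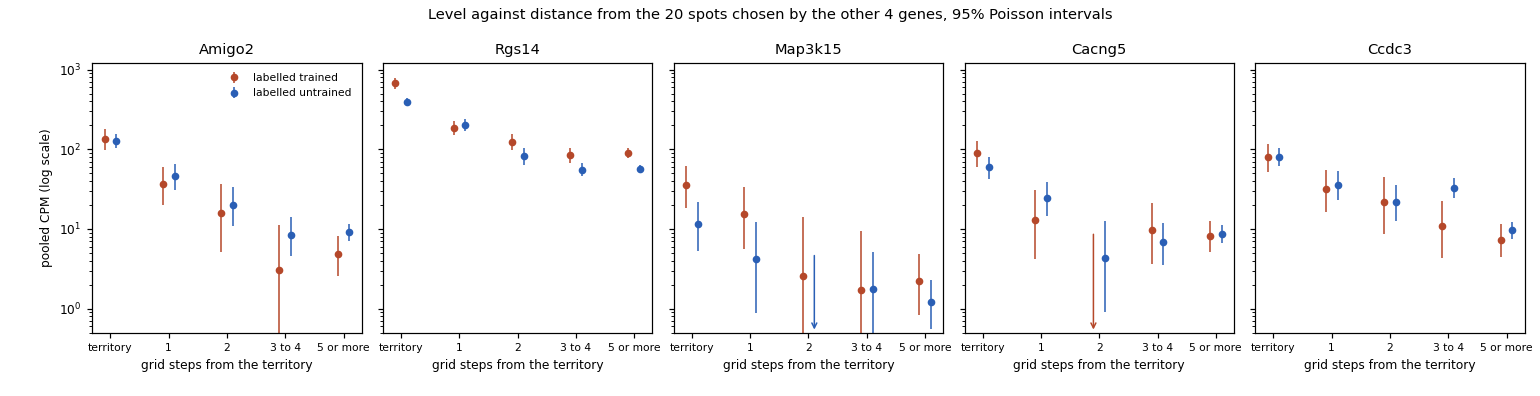
Pooled CPM of each gene (log axis) against distance in grid steps from the 20 spots chosen by the other 4 genes, over hippocampal spots, with points for the section labelled trained (red) and untrained (blue), bars for 95% Poisson intervals and arrows for counts of 0. Amigo2 falls from 136 and 127 CPM in the territory to 4.80 and 9.05 CPM at 5 steps or more, while Rgs14 stays at 89.6 and 57.4 CPM there.

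On the grid, the 20 spots highest for all 5 genes formed patches at both lateral ends of the hippocampus and a small patch at the midline. Under the label trained, 9 neighbouring spots lay on the right and 6 on the left, with 3 more and 1 more spot at the midline and 1 spot apart from these. The summed, shrunken level of the last spot taken was 451 CPM and that of the first left out 426 CPM under the label trained, and 400 and 398 CPM under untrained. Under the label untrained, 11 neighbouring spots lay on the right and 4 on the left, with 2 more and 1 more at the midline and 2 single spots on the left. The right patch under the label trained held 157 UMIs of Rgs14, 27 of Amigo2, 25 of Cacng5, 16 of Ccdc3 and 4 of Map3k15. The corresponding patch under the label untrained held 239, 75, 39, 53 and 7 UMIs.

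Most of these spots sat at the boundary between the regions with CA1 and CA3 markers. Of the 20 spots, 15 under the label trained and 18 under untrained belonged to the Bok region and the other 5 and 2 to the Wfs1 region, while the Bok region made up 14.4% and 22.8% of the hippocampal spots. The number within 3 grid steps of both regions was 19 of 20 under the label trained and 16 of 20 under untrained, against 157 of 582 (27%) and 253 of 558 (45.3%) hippocampal spots. Within the Bok region alone, 11 of its 15 territory spots touched a spot of the Wfs1 region under the label trained and 8 of 18 under untrained, against 5 of the other 69 and 14 of the other 109 spots. The median distance to the Wfs1 region was 1 step and 1.5 steps for the territory and 4 steps for the other Bok spots of each section.

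**Figure D3:**
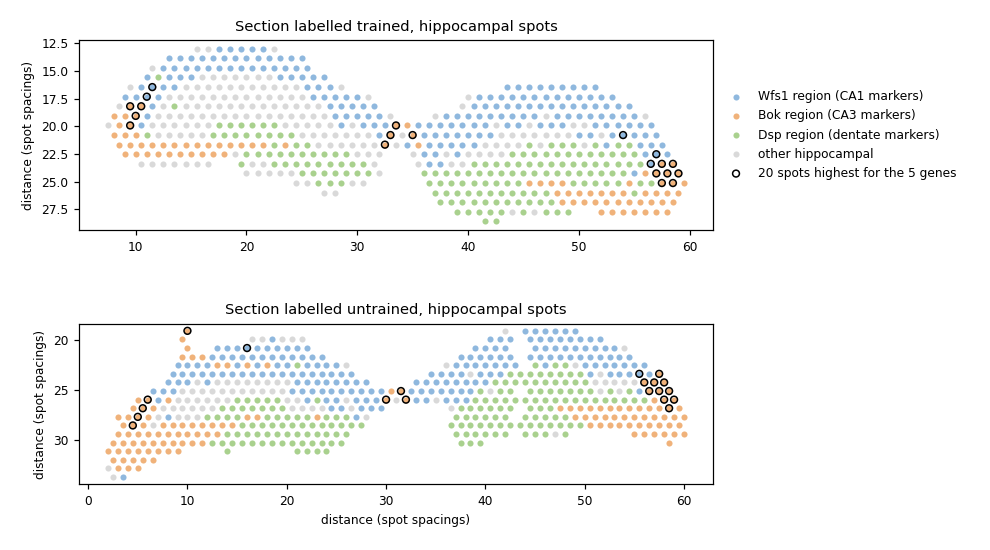
Hippocampal spots of the section labelled trained (top) and untrained (bottom), with both axes in spot spacings and colours for the Wfs1, Bok and Dsp regions and other hippocampal spots. Black rings mark the 20 spots highest for the 5 genes, most of them in the Bok region (15 and 18) at both lateral ends and at the midline.

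The midline spots held few UMIs. In the territories chosen without the gene in question, Amigo2 reached 308 CPM (12 UMIs in 4 spots, 159 to 538) at the midline against 113 CPM (33 UMIs in 16 spots, 77.9 to 159) at the lateral ends under the label trained. Map3k15 gave 6 UMIs in 3 midline spots, 171 CPM (62.7 to 372), against 20 CPM (7.33 to 43.5) in 17 lateral spots of that section. Rgs14 was lower at the midline, at 442 CPM (274 to 676) against 724 CPM (615 to 847) under the label trained and 159 CPM (72.6 to 301) against 415 CPM (366 to 469) under untrained. Under the label untrained, Amigo2 had 3 UMIs in the 1 midline spot of its territory, and Map3k15 had no UMI in 3 midline spots, where 3 counts would be 40.8 CPM. Cacng5 and Ccdc3 had 2 or 3 UMIs each at the midline in both sections. With spots within 10 columns of the midline left out, also chosen after seeing the data, all 5 genes passed 2-fold in both sections.

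In the 20 spots the CA1 and the CA3 marker sets were at levels between those of the other Bok and the other Wfs1 spots. The 20 spots came from both regions, so a pooled level in between follows from that mix alone and is a description. Under the label trained, the CA3 set of 6 genes was at 750 CPM in the territory (660 to 848), 1036 CPM in the other Bok spots and 387 CPM in the other Wfs1 spots, with Cdh24 at 0 in the territory. The CA1 set of 5 genes was at 202 CPM (156 to 255), 60.2 CPM and 1006 CPM. Under the label untrained the CA3 set was at 690 CPM (633 to 751), 733 CPM (701 to 766) and 300 CPM, with Iyd at 0 in the territory. The CA3 set thus overlapped between the territory and the other Bok spots of that section within counting error. The CA1 set under untrained was at 118 CPM (94.7 to 144), 66.2 CPM and 915 CPM. Of the sets for other cell types, the oligodendrocyte set was at 1266 CPM against 1922 CPM in the other Bok spots under the label trained and at 1716 against 3087 CPM under untrained. The astrocyte set was at 264 against 439 CPM and at 207 against 312 CPM. The interneuron set was higher in the territory under the label trained, at 1067 against 738 CPM, and lower under untrained, at 759 against 961 CPM. The deep cortex set of 6 genes was higher in both, at 175 against 97.5 CPM and 185 against 106 CPM, with Ccn2 at 0 in both territories. The part of these sets in the result was not tested.

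Outside the territory the 5 genes had different hippocampal distributions. Ccdc3 was the gene that extended along the region with CA3 markers, at 36.1 CPM in the other Bok spots under the label trained (30 UMIs, 24.4 to 51.5) and 39.1 CPM under untrained (104 UMIs, 32.0 to 47.4), against 4.59 CPM (1.68 to 9.99) and 5.38 CPM (3.13 to 8.61) in the Wfs1 region. Amigo2 showed the same order at lower values, with 24.9 CPM (15.4 to 38.1) and 19.9 CPM (14.9 to 26.0) in the other Bok spots and 4.66 and 5.06 CPM in the Wfs1 region. Rgs14 ran the other way. It was at 158 CPM (138 to 181) and 92.4 CPM (82.3 to 103) in the Wfs1 region and at 93.0 CPM (73.6 to 116) and 64.7 CPM (55.4 to 75.1) in the other Bok spots, and the Dsp region held 81.0 and 56.2 CPM.

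Cacng5 was nearly missing from the other Bok spots under the label trained, with 1 UMI in 69 spots or 1.20 CPM (0.0305 to 6.71), and had 20 UMIs in 109 spots under untrained, 7.48 CPM (4.57 to 11.5). Its highest level among the 3 named regions outside the territory was in the Dsp region, at 13.9 CPM (8.60 to 21.2) and 11.2 CPM (8.20 to 14.9). Map3k15 was at or below 5.99 CPM in every hippocampal region outside the territory, on 7 UMIs or fewer per region.

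**Figure D4:**
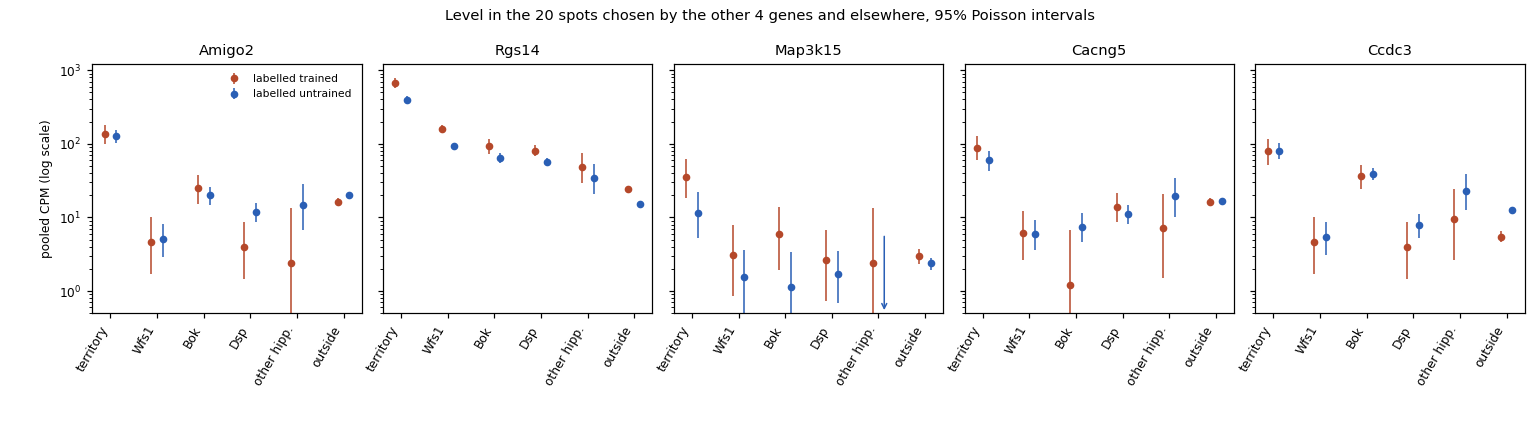
Pooled CPM of each gene (log axis) in the 20 spots chosen by the other 4 genes (territory), in the Wfs1, Bok and Dsp regions and other hippocampal spots without the territory, and outside the hippocampus. Points stand for the section labelled trained (red) and untrained (blue), bars for 95% Poisson intervals and the arrow for a count of 0, and each gene is highest in the territory, with Rgs14 at 674 and 394 CPM there.

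Detection in the same spot followed these levels. At least 4 of the 5 genes were detected together in 11 spots under the label trained, all within the hippocampus and 10 of them among the 20 highest spots. None of 3570 spots outside the hippocampus held 4 of them, which allows a share of up to 0.0840%. Under the label untrained, the deeper section, 37 spots held at least 4, with 21 in the hippocampus, 15 of these among the 20, and 16 outside. All 5 genes were found together in 5 spots under the label trained, each in the hippocampus and among the 20, and in 10 spots under untrained, of which 8 were hippocampal, 6 among the 20 and 2 outside the hippocampus. At 3 genes or more, 13 of 37 spots under the label trained and 135 of 190 under untrained lay outside the hippocampus. One of the spots with all 5 under the label trained, a right-side Bok spot of 35472 UMIs, held 46 UMIs of Rgs14, 11 of Cacng5, 6 of Amigo2, 5 of Ccdc3 and 1 of Map3k15. Since the 20 spots were chosen by these genes, their place among the spots with 4 or more is a description.

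The pairs were uneven because Rgs14 was so widespread. Of 42 hippocampal spots with Amigo2 under the label trained, 32 held Rgs14 (76.2%), which was 14.4% of the 222 spots with Rgs14, and under untrained 79 spots were shared, 71.2% of the Amigo2 spots and 25.3% of the Rgs14 spots. Amigo2 and Ccdc3 shared 19 spots (45.2% and 40.4%) and 42 spots (37.8% and 34.4%). Map3k15 and Cacng5 shared 6 spots (27.3% and 15.4%) and 10 spots (47.6% and 10.6%). Over hippocampal spots, Pearson's r of log-scaled levels between a gene and the sum of the other 4 ran from 0.10 for Cacng5 to 0.32 for Amigo2 under the label trained (582 spots) and from 0.13 for Map3k15 to 0.32 for Amigo2 under untrained (558 spots). These values describe spots of 1 library that share depth, and the counts are sparse.

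White matter, the region of the oligodendrocyte markers, was compared for detection. Rgs14 was found in 6.61% of 333 white-matter spots (median 4331 UMIs) and 38.1% of hippocampal spots (median 5258 UMIs) under the label trained, and in 12.6% of 325 spots (median 7106 UMIs) and 55.9% (median 16754 UMIs) under untrained. With every spot thinned to 2000 UMIs, the Rgs14 shares were 2.36% and 16.1%, and 1.89% and 14.2%. Ccdc3 was found in 7.51% of white-matter and 8.08% of hippocampal spots under the label trained, and after thinning in 4.04% and 2.36%. White matter is no background for this gene, since the Ccdc3 level there was above that of the other outside spots, with log2 ratios of 2.02 (1.36 to 2.60) and 0.86 (0.42 to 1.24). The same limit holds for Rgs14 under untrained, at 0.51 (0.08 to 0.90), while under the label trained it was at -0.79 (-1.50 to -0.21). Under untrained the Ccdc3 shares were 14.8% and 21.9%, and 2.83% and 3.96% after thinning. Amigo2 after thinning was in 1.35% of white-matter and 1.97% of hippocampal spots under the label trained but in 26.3% of the 19 spots of its territory that were deep enough. Cacng5 after thinning was in 5% of 20 territory spots in each section, against 2.76% and 2.52% of hippocampal spots.

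Rgs14 was past 2-fold higher in the whole hippocampus than in the rest of the section under both labels. Its hippocampal level was 140 CPM (129 to 151) against 24.1 CPM outside (22.2 to 26.1) under the label trained and 87.6 CPM (82.2 to 93.2) against 15.4 CPM (14.3 to 16.5) under untrained, log2 ratios of 2.53 (2.37 to 2.70) and 2.51 (2.37 to 2.65). The number of genes past 2-fold was 3 of 5 under the label trained (Rgs14, Ccdc3 at 1.58, 1.15 to 2.00, and Map3k15 at 1.01, 0.29 to 1.65) and 1 of 5 under untrained (Ccdc3 at 0.69, 0.46 to 0.91, and Map3k15 at -0.13, -0.86 to 0.49, did not pass), where 4.93% of 14977 and 4.28% of 16081 other genes passed. Map3k15 fell short under the label trained, leaving 2 of 5, with a wider outline (0.85), without mitochondrially encoded genes (0.99) or with means of single spots (0.71). The Amigo2 intervals included no difference between hippocampus and the rest, with 18 against 16.4 CPM (log2 0.14, -0.23 to 0.48) and 19.7 against 20 CPM (log2 -0.01, -0.23 to 0.19). Cacng5 was lower in the hippocampus under the label untrained (12.4 against 16.6 CPM, log2 -0.41, -0.69 to -0.16). With means of single spots, the log2 ratios under the label trained were -0.70 for Amigo2, -0.92 for Cacng5 and 1.54 for Rgs14, and under untrained -0.14, -0.50 and 2.26. The outside held 83.9% and 81.0% of all Amigo2 UMIs and 86.8% and 84.9% of all Cacng5 UMIs. Of the UMIs of all genes, 25126675 of 29515831 and 47725682 of 59029131 lay outside, so these shares were near that of all RNA. Where the 5 genes came together, in the territory, each was above its own pooled level outside, with log2 ratios between 1.86 for Cacng5 under the label untrained and 4.81 for Rgs14 under the label trained. No share of all genes is given for this comparison, and levels in single outside regions follow below.

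Amigo2 outside the hippocampus had its highest level in the Gpr151 region, which carried the habenula markers Pou4f1, Gng8, Chrnb4 and Tac2. It reached 174 CPM there under the label trained (69 UMIs in 27 of 57 spots, 136 to 221) and 134 CPM under untrained (192 UMIs in 49 of 80 spots, 116 to 154). These levels overlapped those of its hippocampal territory, 136 and 127 CPM, within counting error. The Gpr151 region held 16.7% and 20.1% of the outside UMIs of Amigo2 on 1.57% and 3% of the outside RNA. The Ctxn3 region with thalamus markers held more of these UMIs under the label trained and fewer under untrained, 23.5% and 14.7%, at the lower levels of 37.4 CPM (30.3 to 45.6) and 28.9 CPM (24.3 to 34.1). The Oxt region with hypothalamus markers held 18.2% and 11.1% at 39.2 CPM (30.8 to 49.1) and 24.6 CPM (20.2 to 29.8). Rgs14 in the Gpr151 region had 1 and 2 UMIs, 2.53 and 1.40 CPM, against 674 and 394 CPM in its hippocampal territory.

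Cacng5 was raised in the Gpr151 region and in the regions with thalamus markers. The Gpr151 region held 53.1 CPM (21 UMIs, 32.9 to 81.2) and 35.6 CPM (51 UMIs, 26.5 to 46.8). These intervals overlapped those of the Cacng5 territory, 88.9 CPM (60 to 127) and 59.3 CPM (42.9 to 79.8). The Prkcd region held 42.4 CPM (33.4 to 53.2) and 46.0 CPM (40.4 to 52.1), the latter also overlapping the territory interval under untrained. The Ctxn3 region held 36.2 CPM (29.3 to 44.3) and 27.8 CPM (23.3 to 32.9). Rgs14 outside the hippocampus was highest in the Adora2a region with striatum markers, at 61.2 CPM (51.2 to 72.5, 217 spots) and 49.4 CPM (26.3 to 84.5, 33 spots), and, in the Vip region with upper cortex markers, was at 48.3 CPM (41.1 to 56.3) and 23.4 CPM (19.4 to 28.0). The regions with deep cortex markers held Rgs14 at 26.6 CPM (21.9 to 31.9) and 24.4 CPM (20.9 to 28.4) for the Trbc2 region and 37.2 CPM (19.8 to 63.6) and 31.6 CPM (12.7 to 65.1) for the Ccn2 region. The unnamed Cartpt region, with 2 spots under the label trained and 181 under untrained, held 32.5 CPM (27 to 38.8) under untrained. Map3k15 had its highest outside level in the F5 region with choroid plexus markers, at 19.6 CPM (10 UMIs, 9.38 to 36.0) and 10.9 CPM (48 UMIs, 8.05 to 14.5). These levels overlapped those of its territory, 35.8 CPM (18.5 to 62.5) and 11.6 CPM (5.32 to 22.1), within counting error. The F5 region held 13.3% and 42.5% of its outside UMIs on 2.03% and 9.21% of the outside RNA. Under the label trained the Oxt and Ctxn3 regions held more of these UMIs, 20% and 18.7%.

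Ccdc3 outside the hippocampus was found in several non-neuronal regions and in the Gpr151 region, which held 25.3 CPM (10 UMIs, 12.1 to 46.5) and 16.1 CPM (23 UMIs, 10.2 to 24.1). The Enpp6 region with oligodendrocyte markers held 18.5 CPM (12.4 to 26.6) and 21.6 CPM (16.3 to 28.1), and the Acta2 region with markers of meninges and vessels held 18.3 CPM (11.0 to 28.6) and 28.4 CPM (21.6 to 36.6). The F5 region held 19.6 CPM (9.38 to 36.0) and 46.4 CPM (40.2 to 53.2), the latter in 89 of 139 spots. That region had 48 spots under the label trained and 139 under untrained.

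**Figure D5:**
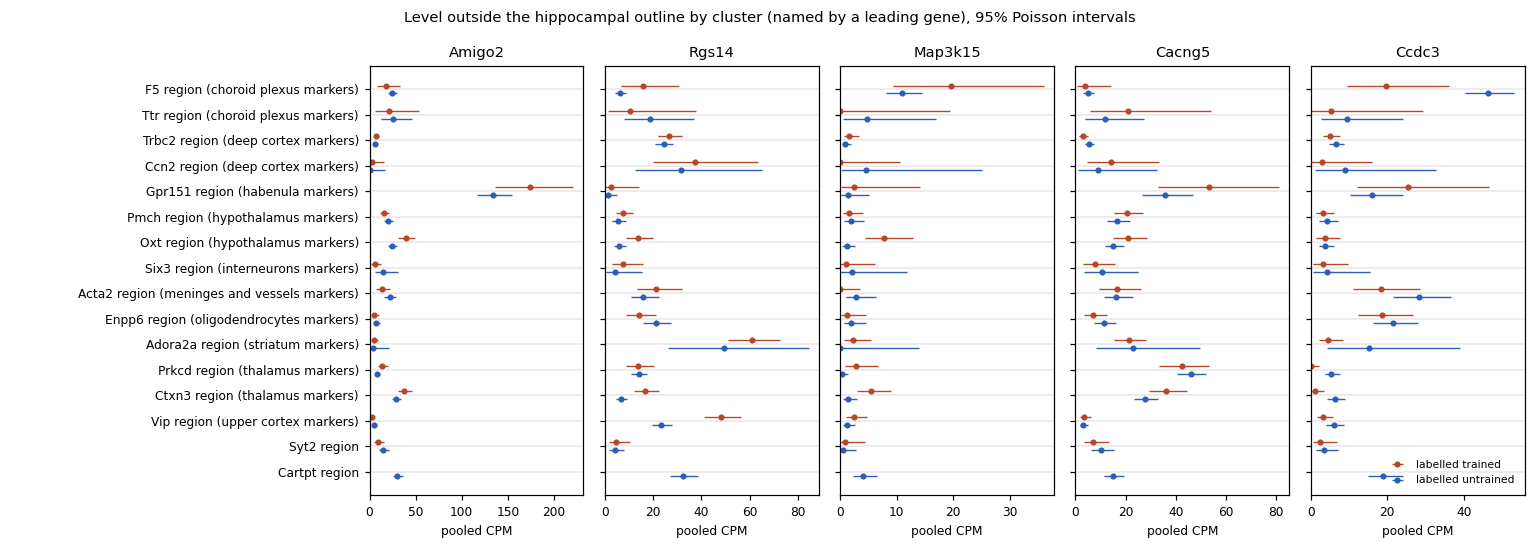
Pooled CPM of each gene (horizontal axes, linear and set per gene) in the clusters outside the hippocampus, named by a leading gene with the marker set they carried, for the section labelled trained (red) and untrained (blue), with 95% Poisson intervals. Amigo2 peaks in the Gpr151 region (174 and 134 CPM), Cacng5 is high in the Prkcd region (42.4 and 46.0 CPM) and the Gpr151 region (53.1 and 35.6 CPM), and Map3k15 is highest in the F5 region (19.6 and 10.9 CPM).

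Of the wider list of 12 genes known from CA2, which had no part in choosing the spots, 5 of the 9 with enough UMIs passed 2-fold in the territory under the label trained and 6 of 11 under untrained, against 5.91% and 4.13% of all genes. The median log2 ratio of the list was 1.48 and 1.19, against 0.05 and 0.02 over all genes. Syce2, a synaptonemal complex gene, had ratios of 2.78 (2.06 to 3.46) and 3.06 (2.55 to 3.56), with 29 and 55 UMIs in the 20 spots. Necab2, a neuronal calcium-binding protein, had 2.70 (2.34 to 3.05) and 2.62 (2.42 to 2.80), at 305 and 436 CPM in the territory against 47.1 and 71.1 CPM in the rest. The phosphatase gene Ptpn5 had 2.02 (1.70 to 2.32) and 2.15 (1.96 to 2.34). Pcp4, a calmodulin-binding protein that also marks dentate granule cells, had 1.48 (1.39 to 1.57) and 0.98 (0.91 to 1.05), and the neurotrophin Ntf3 had 0.88 (-0.18 to 1.71) and 1.19 (0.58 to 1.73).

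The receptors on the wider list gave less. Avpr1b, the vasopressin receptor 1b, had no UMI in the hippocampus under the label trained and 3 under untrained, and all 3 lay in the 20 spots. Oxtr, the oxytocin receptor, had 1 of 6 hippocampal UMIs in the territory under the label trained, too few to be compared, and 7 of 28 under untrained, a ratio of 2.25 (0.70 to 3.47). Nr3c2, the mineralocorticoid receptor, had 0.62 (0.15 to 1.03) and 0.81 (0.49 to 1.10), and Adora1, the adenosine A1 receptor, had 0.18 (-0.36 to 0.64) and 0.62 (0.34 to 0.89). Acan, the perineuronal net proteoglycan aggrecan, had 1.63 (-0.53 to 3.11) and 1.79 (0.28 to 2.94) on 4 and 7 UMIs. Actn2, which encodes an actinin, and the growth factor gene Fgf2 had intervals that included 0 in the section or sections where they were compared.

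Relatives of the 5 genes were compared in the same way. Of 11 genes of the AMIGO, R12 RGS, AMPA receptor auxiliary and ASK kinase families, 8 and 10 could be compared, none passed upwards and 1 passed downwards in each section, and the median log2 ratio was -0.11 in both. Over all genes 5.91% and 4.13% passed upwards and 9.62% and 8.93% downwards, so counts of this size in so short a list lay near the background. Cacng3, another AMPA receptor auxiliary subunit, was at -1.01 (-2.59 to 0.03) and -0.99 (-1.73 to -0.40), and Rgs12 at -0.53 (-2.11 to 0.53) and -1.05 (-2.27 to -0.18). Map3k5, an ASK kinase, was at 0.57 (-0.89 to 1.62) and 0.94 (0.24 to 1.54). Map3k6, another ASK kinase, was at 0.90 (-0.72 to 2.03) under untrained, and under the label trained it had 5 of 17 hippocampal UMIs in the territory, below the minimum of 20.

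A further ranking left out the 5 genes and the wider CA2 list and took 6315 other genes with at least 100 hippocampal UMIs in each section. Those most raised in the territory were Strip2, Cpne7, Srgap2, Kcnv1, Dusp5, Hapln4, Plch2, Spink8, Kcna6 and Asph, ranked by the lower ratio of the 2 sections. Strip2 had log2 ratios of 2.77 (2.24 to 3.27) and 2.43 (2.07 to 2.78), and Cpne7 had 2.64 (2.21 to 3.05) and 2.11 (1.85 to 2.36). Hapln4, a link protein of perineuronal nets, had 2.02 (1.64 to 2.38) and 1.85 (1.63 to 2.07). The potassium channel genes Kcnv1 and Kcna6 had lower ratios of 1.87 and 1.65. Over all hippocampal spots, the genes with the highest Pearson's r with the summed level of the 5 were Tmsb4x (0.37 and 0.36 over 582 and 558 spots), Crym (0.31 and 0.35), Hpca (0.31 and 0.36), Wipf3 (0.28 and 0.33) and Spink8 (0.33 and 0.28). Spink8 was also a leading gene of the Wfs1 region, and Hpca of the Bok region. The ratios were taken against all other hippocampal spots together, not against the other Wfs1 or Bok spots alone. Likenesses to the 5 genes are read from 1 library each and say nothing of shared control.

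The last question was whether the 5 genes differed between the labels. In the hippocampus 1 of the 5, Map3k15, passed 2-fold, against 1.66% of 5795 other genes compared, but it had 26 and 24 UMIs. Those genes had at least 400 UMIs over both hippocampi, which among the 5 holds for Rgs14 alone, so the share is no like-for-like background for the other 4. Map3k15 was at 5.92 CPM under the label trained and 2.12 CPM under untrained, a log2 ratio of 1.48 (0.62 to 2.34). Rgs14 was higher under the label trained in each hippocampal region compared and outside, with a hippocampal log2 ratio of 0.67 (0.53 to 0.82), 0.78 (0.49 to 1.05) in the territory, 0.78 (0.52 to 1.03) in the Wfs1 region, 0.53 (0.12 to 0.92) in the other Bok spots and 0.65 (0.49 to 0.81) outside the hippocampus. The median over the 5795 genes was 0.07, and 5% of them lay above 0.69. Amigo2 (-0.13, -0.52 to 0.24), Cacng5 (0.22, -0.24 to 0.65) and Ccdc3 (-0.30, -0.71 to 0.08) had intervals that included 0 in the hippocampus, and in the territory their ratios were 0.11, 0.59 and 0.01. With means of single spots, the hippocampal ratios of Amigo2, Cacng5 and Ccdc3 were -0.53, -0.25 and -0.45, and those of Rgs14 and Map3k15 were 0.46 and 1.58. Intervals below 0 were found for Amigo2 in the Dsp region (-1.45, -3.07 to -0.33) and outside the hippocampus (-0.28, -0.45 to -0.12). Within the outside, however, Amigo2 was at 0.63 (0.29 to 0.97) in the regions with thalamus markers and 0.39 (-0.04 to 0.78) in the Gpr151 region. Ccdc3 had intervals below 0 in the hippocampus without its territory (-0.47, -0.99 to -0.01) and on its right side (-0.53, -1.05 to -0.05). On the left side Ccdc3 was at 0.15 (-0.57 to 0.79).

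Outside the hippocampus Ccdc3 was at 5.49 CPM under the label trained and 12.6 CPM under untrained, a log2 ratio of -1.19 (-1.47 to -0.93). Without the clusters carrying choroid plexus markers, an alternative chosen after seeing the data, the ratio was -0.81 (-1.11 to -0.52) and within those clusters -1.40 (-2.48 to -0.59). In the regions with thalamus markers Ccdc3 had 3 UMIs in 713 spots (0.688 CPM) and 60 UMIs in 653 spots (5.87 CPM), a log2 ratio of -2.88 (-5.41 to -1.48). Map3k15 went the other way there, with 19 and 9 UMIs and a log2 ratio of 2.27 (1.09 to 3.63). With 1 mouse per label, the label, the mouse, the section plane and the library cannot be told apart.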

How the data were processed

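Spot counts were taken from the deposited matrices, in which the authors had counted UMIs with Space Ranger 2.0.0 on a 10x mouse reference of build mm10 after trimming with TrimGalore. The deposited enrichment tables held further counts and a score, Moran's I, by the authors. Their count totals equalled the matrix sums for all 5 genes. The members and lists were chosen with earlier results of these data known. Both sections share 3448 spot barcodes, as slides of this design carry the same set. Spots of at least 500 UMIs were clustered together (947 genes, Leiden, resolution 1.5, 22 clusters) without the genes described, and clusters were matched to marker sets. The outline rule was chosen with the data in view. Territories took 20 spots by summed UMIs over spot total, shrunk to the hippocampal mean with a weight of 5000 UMIs. Log2 ratios used a pseudocount of 0.5 UMI. Other genes were named by their territory ratio or r, ranked by the lower section. Intervals were exact Poisson for CPM and exact conditional binomial for ratios. UMIs were thinned with seed 7. Steps were tested on simulated data. Clustering used scanpy 1.11.5 with leidenalg 0.10.2 and igraph 0.11.9, intervals scipy 1.17.1 and figures matplotlib 3.10.9, in Python 3.11.15.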

Additional observations from a re-analysis of the deposited data

How the results depend on the processing

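All 5 genes passed 2-fold in the territory of each section under 10 or 40 spots, no shrinkage, spots with at least 3 of the other 4 genes, mitochondrially encoded genes left out, means of single spots, the right side, a wider outline and choice without Rgs14. The exceptions were 3 genes under the label trained and 4 under untrained with spots thinned to 2000 UMIs, where Ccdc3 turned to -0.04 and -0.81, and 4 on the left side under the label trained. The percentage of territory spots near both fields under the label trained moved from 95% to 100% with 10 spots, with layers set by the highest marker set of each spot, at 4 steps or at resolution 1.0 with layers named by marker set alone, and to 72.5% with 40 spots. Under untrained it moved from 80% to 100% at 4 steps and was 65% at 2 steps. The step limits, the naming by marker set alone and the choice without Rgs14 were added after seeing the data. At resolutions 1.0 and 2.0 the naming rule left the cluster with CA3 markers unnamed. The percentage near both fields was therefore given there only with naming by marker set alone. Hippocampal spots with at least 3 of the 5 genes numbered 24 under the label trained, 9 at 2 UMIs per gene and 0 after thinning, and 55, 19 and 1 under untrained. With a minimum of 100 UMIs, 2.84% of genes passed 2-fold between the labels. The cause of these shifts was not tested. The count of genes past 2-fold in the hippocampus over the rest of the section went from 3 to 2 under the label trained in 3 of 4 alternatives, through Map3k15, and was 1 in all 4 under untrained. No paired analysis was possible because each label has 1 section of 1 mouse, and these are different mice. Map3k15 rests on 26 and 24 hippocampal UMIs.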
